A study of Pseudotsuga menziesii with 10 samples.

Results

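The change of the megagametophyte transcriptome from 10 to 22 June was described in 4 libraries of Douglas-fir (Pseudotsuga menziesii), of 10 in the series. These 4 were chosen by their labelled dates, and the table gives 54889 assembled transcripts (contigs) for each. On 22 June, labelled as the time of fertilization, there was 1 library of pollinated and 1 of unpollinated megagametophytes. On 10 June, labelled as the time of corrosion cavity formation, there was again 1 of each. Every library was made from a pool that the labels put at 200 to 400 megagametophytes, dissected from bagged cones of a single clone (genotype 970) grown in an orchard in 2011. Pollinated cones were given a mix of pollen of several genotypes, and their libraries are labelled as megagametophyte with embryo on both dates. Unpollinated cones received no pollen. No date and state had a second library, and the clone is a single genotype, so nothing is known here about variation between trees. The other 6 libraries (megagametophytes of 30 June and 6 July in both states, and cone scales and cone bracts of 26 May) are shown as context.

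In conifers the megagametophyte is the haploid female gametophyte. It forms before fertilization, carries the archegonia with the egg cells, and later becomes the storage tissue that feeds the embryo and the seedling. The corrosion cavity is a space that opens in its centre as cells there break down, and the suspensor pushes the young embryo into it after fertilization. The table pairs no gene names with its contigs and no sequences were at hand, so contigs appear by identifier, marker genes of the tissue could not be looked up, and no pathway is described.

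Levels are in FPKM (fragment counts scaled by the length of the contig and the size of the library), and changes are differences of log2(FPKM + 1), 22 June minus 10 June. Contigs at 10 FPKM or more numbered 8738 in pollinated and 8468 in unpollinated megagametophytes of 22 June, against 8706 and 8815 on 10 June. At 1 FPKM or more there were 22662 and 22934 contigs on 22 June, against 26596 and 29242 on 10 June. Both libraries of 22 June thus lay below both of 10 June in the number of contigs at 1 FPKM, while the counts at 10 FPKM overlapped between the dates. The other 6 libraries, cone tissue included, had 8682 to 8738 contigs at 10 FPKM, so this overlap is not particular to the dates. Whether a common scaling sets that count was not tested. Date separated the libraries more than pollination did. Across all contigs the pollinated and unpollinated libraries correlated at 0.959 on 22 June and 0.943 on 10 June, and libraries of different dates at 0.853 to 0.911. Sequencing depth is unknown, so no counting error can be stated.

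Contigs with large changes in both pollination states were mostly lower on 22 June. Of 10303 contigs that averaged 10 FPKM or more on at least 1 of the dates, 357 (3.47%) were 4-fold or more lower on 22 June in both states, and 69 (0.670%) were 4-fold or more higher. At 2-fold the counts were 1412 lower and 791 higher, at 8-fold 90 lower and 15 higher, and at 16-fold 12 lower and 3 higher. The same rule turned to pollination, asking for 4-fold between the states on both dates, gave 10 contigs higher and 6 lower in pollinated megagametophytes. These counts rest on size alone. In bulk tissue, fewer cells of a type and less RNA per cell cannot be told apart.

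**Figure D1:**
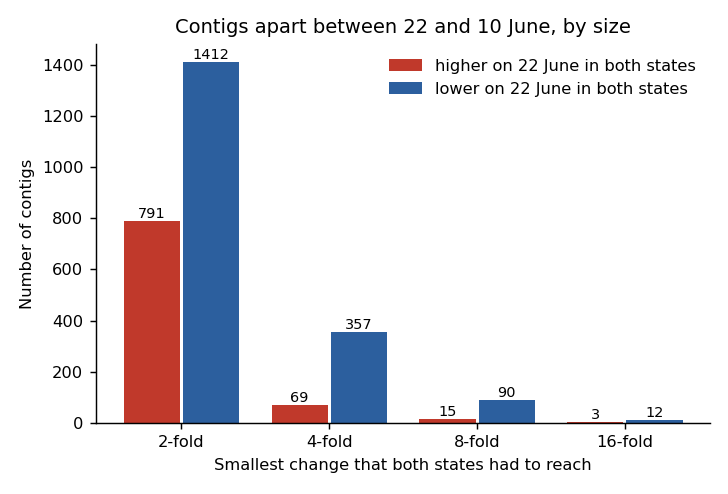
Number of contigs (vertical axis) that were higher (red) or lower (blue) on 22 June in both pollination states by at least the fold on the horizontal axis, among 10303 contigs averaging 10 FPKM or more on 1 date or both. Lower contigs outnumbered higher ones at each of the 4 sizes, 357 against 69 at 4-fold.

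No contig passed the test of date. With pollination state as the pair, limma gave 0 of 26187 contigs (0%) at an adjusted p under 0.05, with a smallest adjusted p of 0.0903. The paired model has 1 residual degree of freedom. At an unadjusted p under 0.05 it gave 8837 contigs, 3462 higher and 5375 lower on 22 June. After quantile normalization of the 4 libraries this split was 4373 higher and 4321 lower, with a median change of all contigs of 0.09, against -0.09 in the values as deposited. Without the pair limma called 4265 of 26187 contigs (16.3%), 1419 higher and 2846 lower. With all 8 megagametophyte libraries, date as a factor of 4 levels and pollination state as a term, it called 5147 of 27065 (19.0%), 2026 higher and 3121 lower. The call thus depended on the form of the model, and the sentences below give values and counts by size.

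In the paired model all 357 lower and all 69 higher contigs had an unadjusted p under 0.05, with limma adjusted p of 0.0903 to 0.134 and 0.0903 to 0.135. Without the pair 295 of the 357 and 45 of the 69 were called by limma, and with 8 libraries 349 and 59. The contigs were chosen on these same libraries, so these shares are no independent check of them.

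The lower contigs stood at moderate to high levels on 10 June and at low levels on 22 June. Their median was 3.26 (pollinated) and 0.765 FPKM (unpollinated) on 22 June, against 27.1 and 28.7 FPKM on 10 June. They made up 0.891% and 0.293% of all FPKM on 22 June, against 5.57% and 6.18% on 10 June. On 22 June 83 of the 357 were under 1 FPKM in pollinated and 198 in unpollinated megagametophytes. The 4-fold rule itself keeps all 357 above 1 FPKM in both libraries of 10 June. The 61 that averaged 100 FPKM or more on 10 June had a median of 23.7 FPKM on 22 June, against 236.0 FPKM on 10 June. The most abundant of all, GAZW02069508, picked out after its values were seen, stood at 289.0 (pollinated) and 35.3 FPKM (unpollinated) on 22 June, against 1509 and 2451 FPKM on 10 June. Its levels on the dates did not overlap, and it was under 1 FPKM in all 4 libraries of 30 June and 6 July.

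The higher contigs were fewer and covered a wide range of starting levels. Their median was 30.8 (pollinated) and 29.3 FPKM (unpollinated) on 22 June, against 3.66 and 1.5 FPKM on 10 June. They made up 1.17% and 1.34% of all FPKM on 22 June, against 0.206% and 0.0535% on 10 June. The most abundant, GAZW02012764, also picked out after its values were seen, stood at 961.1 and 1135 FPKM in pollinated and unpollinated megagametophytes of 22 June, against 218.8 and 27.1 FPKM on 10 June. On 30 June it stood at 1225 and 1379 FPKM and on 6 July at 1167 and 1295 FPKM, but at 20.7 (scales) and 2.36 FPKM (bracts).

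Few contigs went between near absence and plain presence. Of the 10303 contigs, a group of 49 lay under 1 FPKM on 22 June and reached 10 FPKM on 10 June, each time in both states. Their median peak was 19.0 FPKM and the highest 164.4 FPKM. The reverse held for 10 contigs, with a median peak of 16.9 FPKM and a highest of 77.2 FPKM. The most abundant contigs were in neither group.

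**Figure D2:**
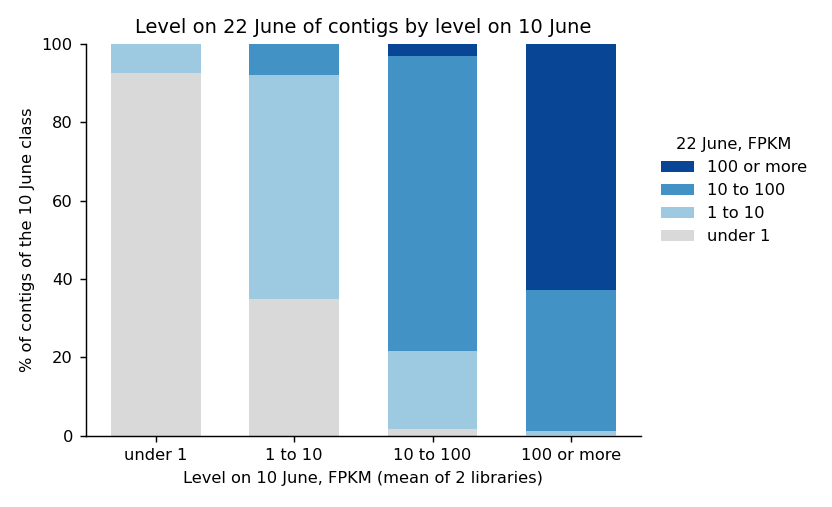
Contigs grouped by their mean level in the 2 libraries of 10 June (horizontal axis, FPKM), with the share of each group in each class of mean level on 22 June (vertical axis, %; shading). Of the contigs at 100 FPKM or more on 10 June, 62.8% were still in that class on 22 June and 35.9% were between 10 and 100 FPKM.

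The share of contigs 4-fold or more apart in both states differed with the level and with the date that set the class. By level on 10 June, 3.77% at 10 to 100 FPKM and 6.94% at 100 FPKM or more were lower, and 0.165% and 0.114% higher. By level on 22 June, 0.781% and 0.380% of these classes were lower, and 0.717% and 1.65% higher. Of 879 contigs at 100 FPKM or more on 10 June, 552 were still at that level on 22 June, 316 were between 10 and 100 FPKM, 10 between 1 and 10 FPKM and 1 under 1 FPKM. Into the class at 100 FPKM or more came 237 contigs from between 10 and 100 FPKM and 0 from below. The contigs of that class on 10 June took 38.4% of all FPKM in pollinated and 34.9% in unpollinated megagametophytes of 22 June, against 44.2% and 45.0% on 10 June. The contigs of that class on 22 June took 40.9% and 40.0% on 22 June, against 36.5% and 35.9% on 10 June. A class chosen for high levels on a date tends to lie lower on any other, which is why both are given. The 100 most abundant contigs of each date had 55 in common. The 100 of 10 June held 15 that were 4-fold or more lower on 22 June in both states, and the 100 of 22 June held 3 that were 4-fold or more higher.

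The change had the same sign in both pollination states for most contigs, and it was wider in the unpollinated pair. Across the 10303 contigs, 85.2% had the same sign in both states, and the changes correlated at r = 0.793 (rank correlation 0.858). These are correlations across contigs, which are not replicates. The standard deviation of the change over contigs was 1.05 in pollinated and 1.54 in unpollinated megagametophytes. Among the 357 lower contigs the median change was -2.58 in pollinated and -3.76 in unpollinated megagametophytes, and 307 of them had the wider change in the unpollinated pair. Among the 69 higher contigs the medians were 2.38 and 3.56, and 48 had the wider change in the unpollinated pair. The same share over all 10303 contigs was not counted. The wider spread of the unpollinated pair over all contigs favours such counts, so they are not read as a trait of the sets. Each state has 1 library per date, so the difference between the changes could not be tested.

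**Figure D3:**
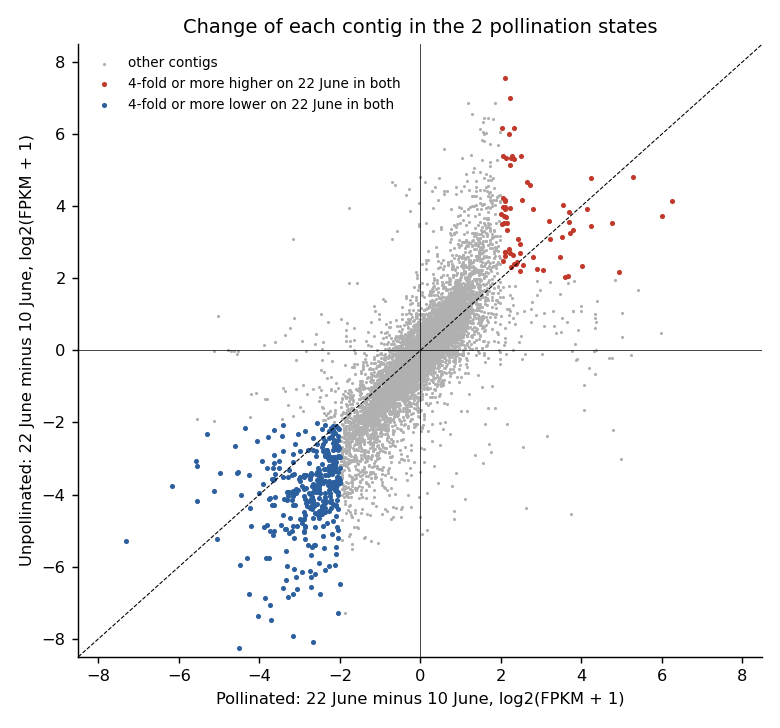
Change from 10 to 22 June of 10303 contigs in pollinated (horizontal axis) and unpollinated megagametophytes (vertical axis), both as differences of log2(FPKM + 1); the dashed line marks equal changes. Contigs 4-fold or more higher (red, 69) or lower (blue, 357) in both states lie mostly on the side where the unpollinated change is the wider one. The wider spread of all contigs in that pair favours this.

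Taken pair by pair, the number of higher contigs went with the library of 10 June and the number of lower contigs with the library of 22 June. Here a contig had to reach 10 FPKM in the higher library of the pair. Pollinated megagametophytes of 22 June had 171 contigs 4-fold or more higher than in pollinated and 534 higher than in unpollinated megagametophytes of 10 June. Unpollinated megagametophytes of 22 June had 212 and 571. The lower contigs numbered 464 and 562 for pollinated megagametophytes of 22 June, and 1002 and 1109 for unpollinated ones, again against pollinated and then unpollinated megagametophytes of 10 June. On a single date, pollinated megagametophytes had 194 contigs 4-fold or more higher and 38 lower than unpollinated ones on 22 June, and 164 higher and 66 lower on 10 June. The pairs share libraries and are not independent of each other.

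The most abundant contigs of each set had medians of the same pattern. They were chosen in these same libraries, so this is no independent support. The 10 most abundant higher contigs had medians of 290.7 (pollinated) and 321.3 FPKM (unpollinated) on 22 June, against 59.6 and 5.48 FPKM on 10 June, so the states were far apart only on the earlier date. The 10 most abundant lower contigs had medians of 129.7 and 26.3 FPKM on 22 June, against 944.6 and 1027 FPKM on 10 June, so the states were far apart only on the later date.

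Some contigs differed between the dates in a single state. Of the 10303 contigs, 26 (0.252%) were 4-fold or more higher and 20 (0.194%) lower on 22 June in the pollinated pair alone. Their change in the unpollinated pair was under 1.5-fold. By the same rule 42 (0.408%) were higher and 60 (0.582%) lower in the unpollinated pair alone. The 60 had medians of 15.9 (pollinated) and 2.79 FPKM (unpollinated) on 22 June, against 19.5 and 27.1 FPKM on 10 June. On 30 June their medians were 0.569 (pollinated) and 1.24 FPKM (unpollinated), and on 6 July 0.458 and 1.35 FPKM. By 30 June they were thus low in both states. A neighbour in number whose changes differed 4-fold or more between the states in the other sense was found for 6 of the 26 contigs (23.1%), 4 of the 20 (20.0%), 4 of the 42 (9.52%) and 4 of the 60 (6.67%), against 335 of all 10303 (3.25%).

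The widest gaps between the changes of the states belonged to contigs that alternated between near absence and 10 FPKM or more. GAZW02069368 stood at 13.1 (pollinated) and 0.0425 FPKM (unpollinated) on 22 June, against 0.0497 and 23.1 FPKM on 10 June. GAZW02069369, the next number, showed the mirror image, at 0.0353 and 11.9 FPKM on 22 June against 18.2 and 0.223 FPKM on 10 June. In each of the 4 libraries 1 of them was under 1 FPKM and the other above 10 FPKM, and their sum was 13.2 and 11.9 FPKM on 22 June against 18.2 and 23.3 FPKM on 10 June. GAZW02068526 stood at 31.9 and 0.414 FPKM on 22 June against 0.0425 and 10.5 FPKM on 10 June, and GAZW02021741 at 0.0425 and 12.2 FPKM against 19.7 and 0.110 FPKM. These 2 had no such partner among the neighbouring numbers in the table. Whether neighbouring numbers are variants of 1 gene, and how reads were shared between them, was not tested.

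The contigs with the smallest p in the paired model did not pass (limma adjusted p of 0.0903 each), and only their values are given. GAZW02058531 stood at 39.8 (pollinated) and 28.0 FPKM (unpollinated) on 22 June, against 0.0425 FPKM in each on 10 June. Its fitted change was 5.04 ± 0.27 (SE) as deposited, but 7.88 with 0.1 FPKM and 2.93 with 5 FPKM added before the logarithm. GAZW02090961 stood at 30.3 and 44.6 FPKM against 2.34 and 4.31 FPKM, a fitted change of 3.17 ± 0.19. Both were higher on 22 June in 2 of 2 states, without overlap between the dates. A choice by the smallest p in these same libraries favours such contigs, so this is no independent support. GAZW02090961 reached 100.1 and 218.8 FPKM on 6 July and stood at 15.8 (scales) and 47.5 FPKM (bracts). Both neighbours of GAZW02058531 in number were more abundant and lay higher on 22 June as well, the preceding one at 1379 and 1120 FPKM against 480.0 and 172.6 FPKM on 10 June, and the following one at 218.8 and 221.9 FPKM against 82.9 and 27.8 FPKM.

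GAZW02015219 stood at 0.0353 FPKM in each library of 22 June, against 33.3 (pollinated) and 37.6 FPKM (unpollinated) on 10 June, a fitted change of -5.13 ± 0.23 (SE), or -8.03 with 0.1 FPKM and -3.004 with 5 FPKM added. GAZW02053203 stood at 0.0425 FPKM in each library of 22 June, against 18.6 and 20.7 FPKM on 10 June, a fitted change of -4.30 ± 0.26, or -7.11 and -2.29 with those additions. The size of these changes thus depends on the value added. Both were lower in 2 of 2 states, which the choice by smallest p again favours, and near the lowest values of the table on 22 June. Each had a preceding neighbour in number at nearly its own level on 10 June. The contig preceding GAZW02015219 stood at 45.9 and 26.7 FPKM on 22 June, against 33.8 and 37.9 FPKM on 10 June, and that preceding GAZW02053203 at 31.2 and 34.5 FPKM against 18.2 and 20.1 FPKM. The sum of GAZW02015219 and its neighbour differed by -0.54 in pollinated and -1.46 in unpollinated megagametophytes, and that of GAZW02053203 by -0.23 in each. The following neighbours differed from each other. That of GAZW02015219 was lower on 22 June too, at 0.682 and 0.292 FPKM against 32.4 and 68.6 FPKM on 10 June, and that of GAZW02053203 stood at 107.4 and 100.8 FPKM on 22 June against 99.4 and 129.7 FPKM on 10 June. A neighbour within 5% in both libraries of the higher date was found for 3 of the 357 lower contigs (0.840%) and 0 of the 69 higher ones. Of the 49 contigs at 10 FPKM on 10 June and under 1 FPKM on 22 June, 3 had one (6.12%), against 41 of all 10303 (0.398%). Summed with that neighbour, 0 of them stayed 4-fold apart in both states.

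**Figure D4:**
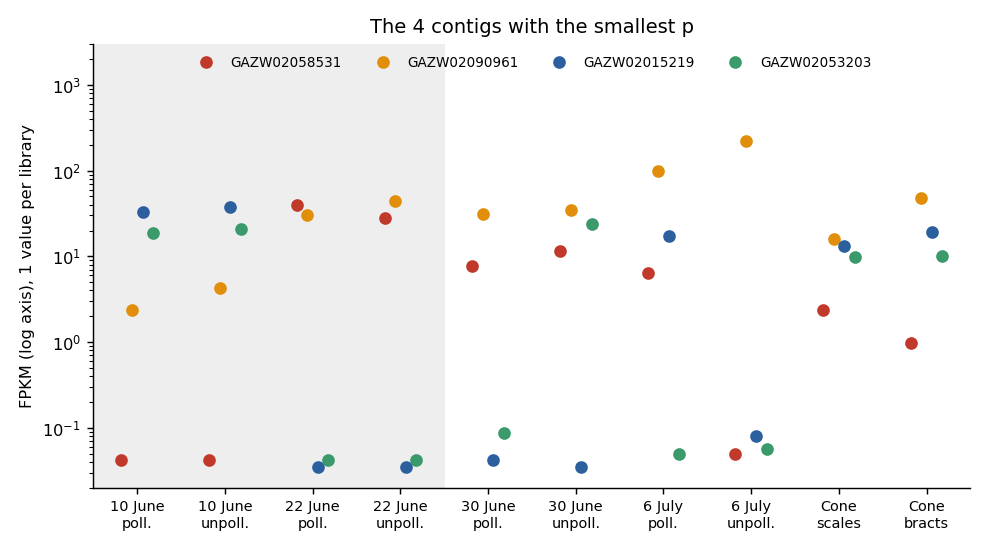
Level of the 4 contigs with the smallest p (FPKM, log axis) in each of the 10 libraries, 1 point per library; grey marks the 4 libraries compared. GAZW02058531 and GAZW02090961 were higher on 22 June in both states, and GAZW02015219 and GAZW02053203 were near the lowest values of the table on 22 June and returned to more than 10 FPKM in single later libraries.

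The later course of GAZW02015219 and GAZW02053203 was uneven. GAZW02015219 stood at 17.4 FPKM in pollinated megagametophytes of 6 July and under 0.1 FPKM in the other 3 later megagametophyte libraries. GAZW02053203 stood at 23.6 FPKM in unpollinated megagametophytes of 30 June and under 0.1 FPKM in the other 3. Their preceding neighbours in number stood near these levels in the same libraries, at 17.8 and 22.4 FPKM. In the other 3 they stood at 34.8 to 52.1 and 50.3 to 61.7 FPKM. In scales and bracts GAZW02015219 stood at 13.3 and 19.3 FPKM, and its neighbour at 13.6 and 19.4 FPKM. GAZW02053203 stood there at 9.78 and 10.0 FPKM, and its neighbour at 9.06 and 9.27 FPKM. How reads were shared between neighbours was not tested.

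The other libraries, which had no part in choosing the contigs, show where the sets stood later and in cone tissue. The 357 lower contigs had medians of 0.257 (pollinated) and 0.173 FPKM (unpollinated) on 30 June, and 0.133 and 0.181 FPKM on 6 July. Under 1 FPKM in all 4 later megagametophyte libraries were 212 of them, and 15 were at 10 FPKM or more in all 4. The 69 higher contigs had medians of 20.7 and 25.7 FPKM on 30 June and 31.7 and 34.0 FPKM on 6 July. None of them was under 1 FPKM in both states on either later date, and 42 were at 10 FPKM or more in all 4 later libraries. Of all 10303 contigs, 690 were under 1 FPKM and 6288 at 10 FPKM or more in all 4. These are levels, and no comparison with 22 June was made.

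**Figure D5:**
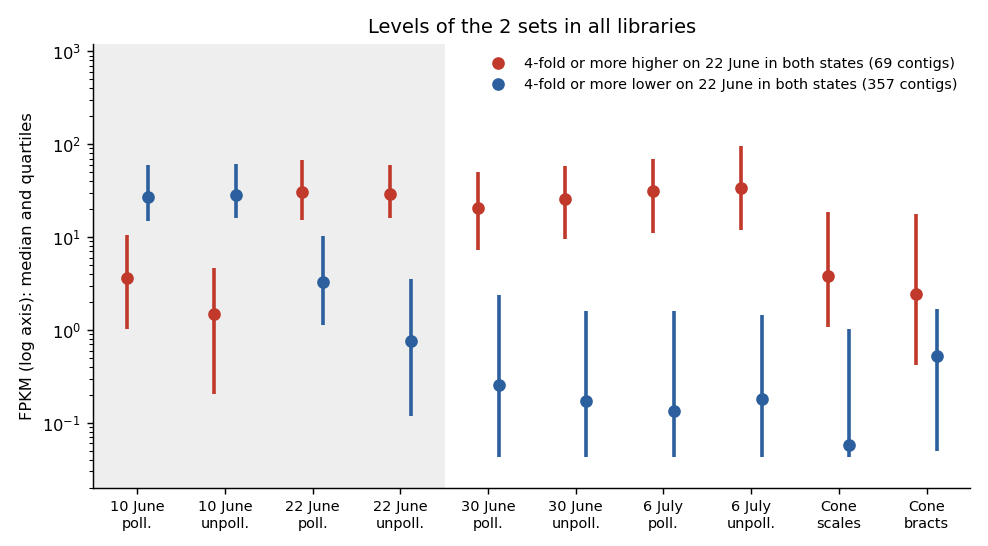
Median (points) and quartiles (lines) of FPKM on a log axis in each of the 10 libraries, for the 69 contigs 4-fold or more higher (red) and the 357 contigs 4-fold or more lower (blue) on 22 June in both states; grey marks the 4 libraries that chose them. Outside the grey area the lower contigs had medians under 1 FPKM in every library and the higher contigs medians of 20.7 to 34.0 FPKM in megagametophytes.

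In cone tissue, 218 of the 357 lower contigs (61.1%) had less than 1 FPKM in scales and also in bracts, as did 15 of the 69 higher contigs (21.7%) and 1348 of all 10303 (13.1%). Both cone tissues had 10 FPKM or more of 18 lower contigs (5.04%), 17 higher contigs (24.6%) and 5302 of all (51.5%). Under 1 FPKM in all 4 later megagametophyte libraries and in both cone tissues were 175 of the 357 lower contigs and 563 of all 10303. These 175 were thus above 1 FPKM in none of the other 6 libraries.

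A list of 387 contigs stood in for transcripts of cone tissue. Each was at 10 FPKM or more in both scales and bracts and under 1 FPKM in the 4 later megagametophyte libraries. Tissue lying directly around the megagametophyte has no library in the series, so its carry-over into the pools was not measured. The summed level of the list was 208.0 (pollinated) and 165.5 FPKM (unpollinated) on 22 June, against 407.5 and 545.6 FPKM on 10 June. This was 0.0415% and 0.0355% of all FPKM on 22 June, against 0.0763% and 0.0971% on 10 June. The same sum was 16689 (scales) and 21045 FPKM (bracts). At 10 FPKM or more were 4 of the 387 in each library of 22 June, against 7 and 8 on 10 June. The dates did not overlap in the sum, but the limit on the later libraries favours contigs that fall with time. A lower sum on the later date is thus partly built into the list. Of the 357 lower contigs 1 was on this list (0.280%), of the 69 higher contigs 0, and of all 10303 contigs 8 (0.0776%). So few of the list were among contigs counted by size that these overlaps tell little about cone tissue in either set. Without contigs at 10 FPKM or more in scales or bracts, 326 lower and 44 higher contigs were left.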

How the data were processed

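PolyA RNA of 8 megagametophyte pools, cone scales and cone bracts was sequenced from both fragment ends, without strand information, per the labels' protocols. The authors deposited 1 table of FPKM on a log scale, whose base and offset are not stated and which was read as log2(FPKM + 1). This reading was chosen because each contig reaches at least 1.01 in some library, as a limit of 1 FPKM would leave. The submitters' processing notes list RSEM 1.2.12, Bowtie 1.0.1, R 3.1.0, bedtools 2.17, Trim Galore 0.2 and FastQC 0.10, with no role for any. Whether libraries were brought to a common distribution is not given in the sources used here. Such a step would hide shifts in overall level.

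Libraries were grouped by labelled date and pollination state. Contigs averaging at least 1 FPKM in the 4 libraries were fitted with limma 3.58.1 (R 4.3.3, intensity trend, pollination state as the pair, Benjamini-Hochberg adjustment). The model was also run on simulated data with known changes, where only the size of the fitted change had to meet a limit. The share of known changes called was counted there too but is not given here. Whether the paired test could call a true change is thus not shown. The scale with 1 FPKM added understates changes of low contigs. With 1 library per date and state, the p-values measure only how far the 2 states differ in their change. Counts by size asked for 4-fold in both states and a mean of 10 FPKM on the higher date. Contigs with the smallest p are named where fewer than 2 pass in a direction, and the widest gaps between states. The comparison, sets and rules were chosen with earlier results of these data known. Summaries used Python 3.11.15, numpy 2.4.6, pandas 2.3.3 and matplotlib 3.10.9.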

Additional observations from a re-analysis of the deposited data

Results flagged for a closer look

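Some contigs moved in opposite directions in the 2 pollination states. Among the 10303 contigs, 20 were 2-fold or more higher on 22 June in the pollinated pair and 2-fold or more lower in the unpollinated pair, and 8 showed the reverse. Each state has 1 library per date, and the difference was not tested. The 20 had medians of 19.8 (pollinated) and 3.35 FPKM (unpollinated) on 22 June, against 4.52 and 20.0 FPKM on 10 June. Of the 20, 2 had a contig with a neighbouring number whose changes differed 4-fold or more between the states in the other sense, as had 2 of the 8, against 335 of all 10303 (3.25%).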

How the results depend on the processing

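The paired test gave 0 contigs with either other pseudocount, either other filter, both rescalings and both other eBayes settings. With a library left out no pair could be fitted. The 3 others, fitted without the pair, also gave 0, with the lone library assumed to vary like those of the other date, which says nothing about the stability of the paired fit. With no replicate block for pollination state limma called 4265 contigs, with 8 libraries 5147, and at an adjusted p under 0.10 it called 4550. For the counts by size, higher and then lower on 22 June, 2-fold gave 791 and 1412, 16-fold 3 and 12, a minimum of 1 FPKM 137 and 621, one of 50 FPKM 21 and 106, and a pseudocount of 5 FPKM 23 and 112. The pollinated pair alone gave 171 higher contigs and the unpollinated pair alone 571 higher and 1109 lower. Without contigs at 10 FPKM or more in cone tissue, added after the data were examined like those on the cone tissue list and near-equal neighbours, 44 higher contigs were left. Lower contigs were more numerous under each of these. With limits of 1 and 5 FPKM for near absence and presence, 45 contigs were present only on 22 June and 215 only on 10 June, with 2 and 20 FPKM 2 and 11, and with 0.5 and 10 FPKM 26 only on 10 June. The other counts by size or level moved by no more than 1.5 times. Of the 4 contigs named for the smallest p, 2 in each direction, 3 moved over 1.5 times in size with the pseudocount. These were GAZW02058531 (2.93 to 7.88), GAZW02015219 (-8.03 to -3.004) and GAZW02053203 (-7.11 to -2.29). All 4 kept their direction in all 14 alternatives. They passed in 7 of these 56 fits, 4 without the pair and 3 with 8 libraries, and GAZW02053203 did not pass with 8 libraries (adjusted p 0.0555). What depth limits cannot be stated, since it is unknown.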

Other observations

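Contigs of low abundance were also near the lowest values of the table on 22 June more often than on 10 June. In both states, 462 contigs had less than 0.1 FPKM on 22 June after 1 FPKM or more on 10 June, and 159 showed the reverse. The 462 had medians of 0.0425 FPKM in both states on 22 June, against 2.03 (pollinated) and 2.33 FPKM (unpollinated) on 10 June. Under 1 FPKM in all 4 later megagametophyte libraries were 332 of the 462 (71.9%), against 17.9% of the 14275 contigs at 1 to 10 FPKM in both libraries of 10 June. For the 159 it was 29 (18.2%), against 5.39% of the 10980 contigs at 1 to 10 FPKM in both libraries of 22 June. In both scales and bracts 340 of the 462 (73.6%) and 68 of the 159 (42.8%) were under 1 FPKM, against 24.0% of the 14275 and 15.7% of the 10980. The summed level of the cone tissue contigs was also lower on 22 June, which the way they were chosen favours. Of the 462 contigs 2 (0.433%) were on that list, as were 32 of the 14275 (0.224%). Depth per library is unknown, and its part in these counts was not tested.

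Most contigs of both sets had no neighbour in number in their own set. Of the 357 lower contigs, 57 (15.97%) had a contig with the preceding or following number in the same set, and 180 of all 10303 (1.75%) had a neighbour in that set. Of the 69 higher contigs 11 (15.9%) had a neighbour in their set, as had 39 of all 10303 (0.379%). A neighbour 2-fold or more higher in both states was found for 9 of the 357 lower contigs (2.52%) and 483 of all (4.69%), and one 2-fold or more lower in both states for 5 of the 69 higher contigs (7.25%) and 1254 of all (12.2%). Whether such neighbours are variants of 1 gene was not tested.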
